A study of Mus musculus with 51 samples.

Results

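Mouse bone was compared between animals that make their own vitamin C (VitC) and animals that drink it. Gulo encodes the enzyme of the last step of VitC synthesis, and mice homozygous for the Gulo tm1Mae allele (B6.129P2-Gulo tm1Mae, here Gulo-/-) cannot make the vitamin. RNA-seq of femoral bone was available for 3 libraries of wild type mice (WT) and for 3 libraries of Gulo-/- mice that drank water with VitC at 3.3 g/L for all of their 20 weeks (VitC+). These 6 of the 51 samples of the series were chosen by their titles and are the subject here. Another 3 femur libraries, from Gulo-/- mice that had lost VitC (VitC+/-), entered the filter on low genes and the estimate of the spread between libraries, and served to read the level of Gulo. All mice were killed at 20 weeks of age, ate a chow free of VitC and are labelled C57BL/6. The Gulo allele was brought in from a 129 strain, and whether the WT mice were littermates of the Gulo-/- mice or also drank VitC is not given in the sources used here. The femurs were flushed of marrow and minced before total RNA was isolated, and the 3 libraries of a group are described as biological replicates.

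Osteoblasts build bone by secreting type I collagen and proteins that bind mineral, and those that become enclosed in the matrix turn into osteocytes. Prolyl and lysyl hydroxylases modify the collagen chains and need VitC as a cofactor. Osteoclasts, cells of the myeloid lineage, dissolve mineral and matrix. The marrow space between holds blood-forming cells, among which maturing neutrophils are the most numerous, and they fill first their primary granules, with Mpo and Elane, and later their secondary granules, with Ltf and Camp. A flushed femur still holds some of this marrow, so that one RNA sample mixes both tissues. In such bulk RNA, fewer cells of a type and less RNA per cell cannot be told apart.

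In the femurs of VitC+ mice, genes of osteoblasts, osteocytes, collagen assembly, osteoclasts and blood vessels had higher levels than in WT femurs, and genes of neutrophil granules and of the cell cycle had lower levels. The median log2 difference was 1.70 over 24 osteoblast and osteocyte genes and -1.15 over the 8 genes of neutrophil primary granules. No single gene passed the test when all libraries were used. Of 12571 genes tested with limma, 0 (0%) had an adjusted p under 0.05, and the lowest adjusted p was 0.0674. Of 22 alternative fits 16 also gave 0, and the other 6 gave from 17 genes, with another scaling, to 4774 genes, with library weights chosen after the data were seen. At an unadjusted p under 0.05, 1555 genes (12.4%) were higher and 1212 genes (9.64%) were lower in VitC+, together 22.0% of the genes tested. The values of the 3 VitC+ libraries lay all above those of the 3 WT libraries for 1827 genes (14.5%) and all below them for 1788 genes (14.2%), together 28.8%. The counts in the lists of genes that follow are to be read against these shares. Over all genes the median log2 difference was -0.04, and every log2 difference is VitC+ minus WT on the scale of log2(scaled RPKM + 0.5), which understates differences of low genes.

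The split between higher and lower genes depended on how the libraries were scaled to each other. With the median-of-ratios scaling used here, 56.2% of the genes with an unadjusted p under 0.05 were higher in VitC+, against 72.4% when libraries were scaled to the same upper quartile and 91.2% when scaled to the same sum of RPKM. The median over all genes then moved from -0.04 to 0.03 and 0.14, and to -0.12 for the RPKM as deposited. The library labelled VitC+ replicate 1 stood apart, with a summed RPKM of 277934 against 379768 to 430214 in the other WT and VitC+ libraries. Shares of the summed RPKM in that library are therefore taken of a smaller total.

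Libraries of both groups differed in depth and in the check of their labels. In RPKM files, 1 read is worth a fixed amount for a transcript of known length, and from 91.6 to 93.1% of the low values lay within 0.05 reads of a whole number. The depths computed in this way were about 7620000, 35420000 and 39580000 reads in WT replicates 1, 2 and 3, and 34300000, 37630000 and 45030000 reads in VitC+ replicates 1, 2 and 3. WT replicate 1 thus had the fewest reads by far, and 7883 of its 23358 entries were at 0, against 5359 to 6197 in the other 5 libraries. The markers of bone were present in every library, where Col1a1 had a scaled RPKM of at least 321, and so were those of marrow, where the neutrophil genes S100a8 and S100a9 together took 6.32 to 13.95% of the summed RPKM. Skeletal muscle genes, which belong to neither bone nor marrow, varied within both groups. Their summed scaled RPKM was 494, 11.2 and 1186 in WT and 47.7, 2037 and 65.2 in VitC+, so that WT replicate 2 and VitC+ replicates 1 and 3 were nearly free of muscle RNA.

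Gulo itself, on chromosome 14 from 65986787 to 66009210 of mm10, was near the limit of detection in femur. The deposited RPKM were 0.522 for WT replicate 1, 0.486 for WT replicate 2 and 0 for WT replicate 3, which stands for about 9, 39 and 0 reads. For VitC+ replicates 1, 2 and 3 they were 0.180, 0.0352 and 0.0294, or about 14, 3 and 3 reads. The library labelled WT replicate 3, with about 39580000 reads, therefore lacked a transcript that the other WT libraries held, whereas the library labelled VitC+ replicate 1 had more Gulo than the 5 other libraries labelled Gulo-/-, among which those labelled VitC+/- had about 1, 1 and 2 reads. The RPKM covers the whole transcript, so that reads from outside the deleted part could also come from a knockout mouse. Both libraries stayed in the groups of their labels, and results are given with and without them. Over the log2 values of the genes tested, the library labelled WT replicate 3 correlated best with VitC+ replicate 2 (r = 0.975) and less with WT replicate 2 (r = 0.963) and WT replicate 1 (r = 0.959). WT replicate 1 likewise correlated best with VitC+ replicate 2 (r = 0.962), and the library labelled VitC+ replicate 1 correlated best within its own group, with VitC+ replicate 3 (r = 0.9725). These correlations are across genes, which are not independent replicates. WT replicates 1 and 3 and VitC+ replicate 2 also had the most muscle RNA. Their summed scaled RPKM of muscle genes was 494, 1186 and 2037, against 11.2 to 65.2 in the other WT and VitC+ libraries. The part of muscle RNA in these correlations was not tested. No library was a copy of another.

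**Figure D1:**
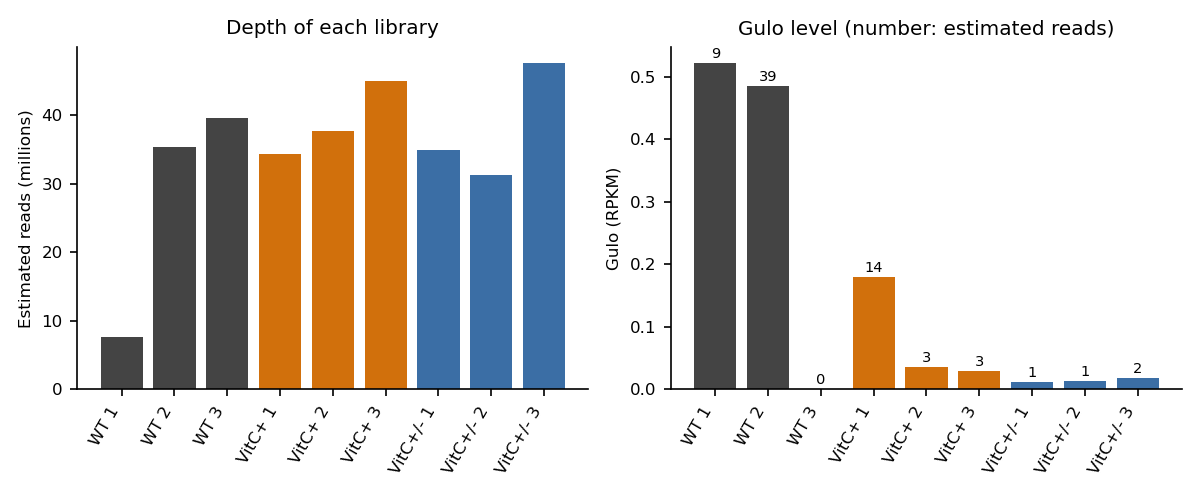
Estimated number of reads (left, bars) and Gulo in RPKM (right, bars, with the estimated number of reads on top) for the 9 femur libraries, named on the horizontal axes by group and replicate. WT 1 had about 7620000 reads where the others had 31230000 to 47570000, and Gulo was at 0 in WT 3 and at 0.180 in VitC+ 1.

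The genes of the osteoblast and osteocyte list, 25 in number, were all found and 24 were tested. Of these, 23 had an unadjusted p under 0.05 and all 23 were higher in VitC+, against 12.4% of all genes, and for 19 the groups did not overlap, against 14.5%. The list was chosen with earlier results of these data known, so that its counts are a description. The osteocalcin genes Bglap and Bglap2, which encode the most abundant protein of bone matrix after collagen, lie side by side on chromosome 3, from 88383495 to 88384464 and from 88377736 to 88378699. They are near-identical copies, and how reads that match both were divided is not given in the sources used here.

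Bglap2 had a scaled RPKM of 96.2, 27.6 and 31.1 in WT and of 553, 167 and 241 in VitC+. The groups did not overlap, and the log2 difference was 2.68 (standard error 0.54, limma adjusted p = 0.0753). Bglap had 1320, 139 and 481 in WT and 3594, 1110 and 1466 in VitC+, with a log2 difference of 2.01 (standard error 0.71, limma adjusted p = 0.155). For Bglap the groups overlapped, since WT replicate 1 exceeded VitC+ replicate 2, and the log2 difference was 1.17 without WT replicate 2 and 2.79 without WT replicate 1. To show the sequence before an osteoblast gene and a neutrophil gene on opposite sides of the comparison, the promoters of Bglap and of Mpo, the myeloperoxidase gene described further on, are printed. RUNX factors, of which RUNX2 directs osteoblast formation, bind a motif with the core ACCACA. This core was searched in the promoters of Bglap, Ibsp, Mpo and Elane, and both the motif and the 4 genes were chosen after the sequences were seen. Both are the 250 bases before the start of the gene in RefSeq (GRCm38.p6), at chr3:88384467-88384716 on the minus strand and chr11:87793534-87793783 on the plus strand, printed 5′ to 3′ with the motif in capitals. On the other strand the motif reads TGTGGT, and both strands were searched.
Bglap: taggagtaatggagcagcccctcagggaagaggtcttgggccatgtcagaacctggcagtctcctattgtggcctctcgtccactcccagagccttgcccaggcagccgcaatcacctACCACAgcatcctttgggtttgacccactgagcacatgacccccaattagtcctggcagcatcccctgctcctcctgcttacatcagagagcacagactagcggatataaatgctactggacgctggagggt
Mpo: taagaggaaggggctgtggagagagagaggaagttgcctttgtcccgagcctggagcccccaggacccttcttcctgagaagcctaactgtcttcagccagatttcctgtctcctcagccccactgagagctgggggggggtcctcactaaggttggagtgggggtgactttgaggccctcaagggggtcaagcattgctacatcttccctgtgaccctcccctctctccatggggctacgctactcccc
The motif occurred in 1 of the 4 windows, that of Bglap, with 1 match that begins 132 bases before the start. It is present in 14.05% of the 32851 promoter windows of the table, and a match is a description of the letters only. The promoter of Bglap2 is not analysed here.

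Spp1 and Ibsp, which encode proteins that bind mineral, had higher levels in each VitC+ library than in each WT library. Spp1, which encodes osteopontin, had 545, 343 and 490 in WT and 1362, 1448 and 1411 in VitC+, and the spread within VitC+ was small against the distance between the groups. Its log2 difference was 1.64 (standard error 0.28, limma adjusted p = 0.0742). Ibsp, which encodes bone sialoprotein, had 304, 122 and 213 in WT and 420, 611 and 949 in VitC+, with a log2 difference of 1.65 (standard error 0.52, limma adjusted p = 0.134). Among enzymes that supply phosphate for mineral, the groups did not overlap for Phospho1. Phospho1 had 8.38, 2.84 and 6.29 in WT and 9.73, 10.2 and 14.8 in VitC+ (log2 difference 1.02, standard error 0.35, limma adjusted p = 0.147). Alpl, the tissue alkaline phosphatase, had 97.9, 21.7 and 43.2 in WT and 146, 96.9 and 154 in VitC+, and these groups overlapped (log2 difference 1.51, standard error 0.65, limma adjusted p = 0.215).

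The osteocyte genes Dmp1 and Sost did not overlap between the groups either. Dmp1, a matrix protein of early osteocytes, had 41.1, 20.7 and 20.7 in WT and 62.6, 85.1 and 90.4 in VitC+, a log2 difference of 1.57 (standard error 0.27, limma adjusted p = 0.0742). Sost, the Wnt inhibitor sclerostin made by mature osteocytes, had 7.42, 3.78 and 3.34 in WT and 36.3, 17.5 and 10.4 in VitC+, a log2 difference of 1.93 (standard error 0.44, limma adjusted p = 0.0833). In both genes WT replicate 1 was the highest WT library, though below every VitC+ library. The transcription factors that direct osteoblast formation differed less in the case of Runx2 than in that of Sp7. Runx2 had 7.24, 5.75 and 7.22 in WT and 10.1, 11.1 and 13.5 in VitC+, a log2 difference of 0.73 (standard error 0.20, limma adjusted p = 0.109), and Sp7 had 20.5, 6.99 and 16.0 in WT and 46.2, 35.7 and 61.8 in VitC+, a log2 difference of 1.78 (standard error 0.54, limma adjusted p = 0.126). The vitamin D receptor Vdr, named by its place among the lowest adjusted p-values without WT replicate 1, had 8.38, 7.50 and 8.31 in WT and 23.7, 21.6 and 32.2 in VitC+.

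**Figure D2:**
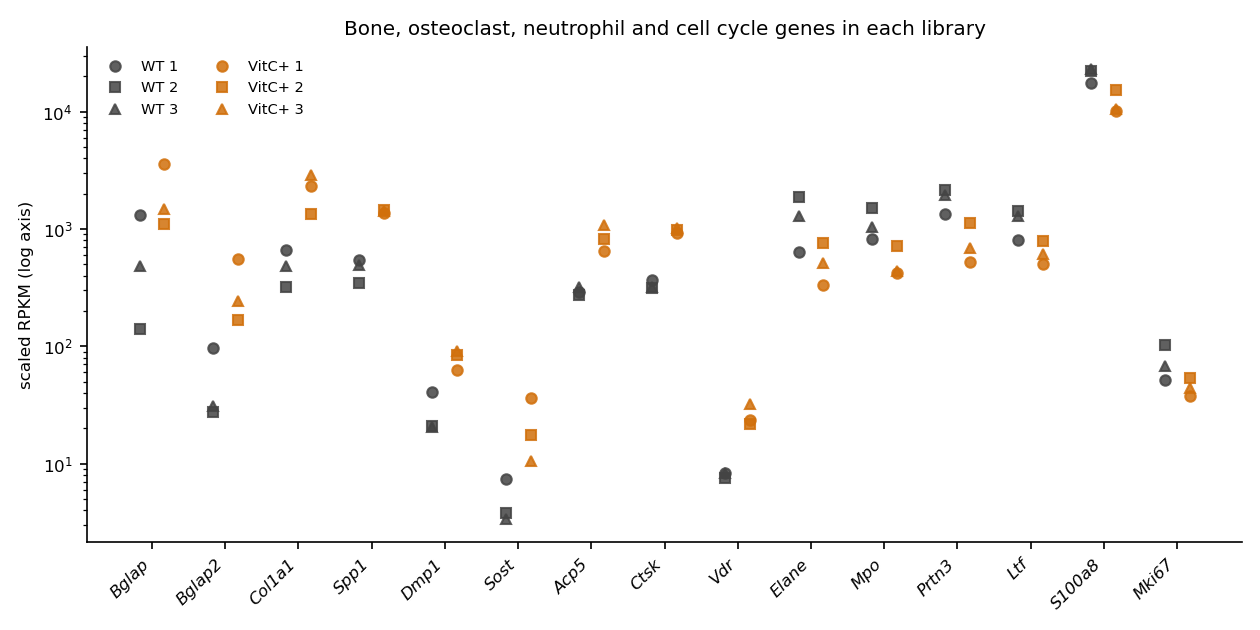
Scaled RPKM (vertical axis, logarithmic) of 15 genes (horizontal axis) in the 3 WT libraries (dark) and the 3 VitC+ libraries (orange), with a symbol for each replicate. Bglap2, Col1a1, Spp1, Dmp1, Sost, Acp5, Ctsk and Vdr lie higher in each VitC+ library than in each WT library, Mpo, Prtn3, Ltf and S100a8 lie lower, and Bglap, Elane and Mki67 overlap.

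Collagen genes and the genes of collagen assembly, 32 in all and all tested, had a median log2 difference of 1.52, and 25 had an unadjusted p under 0.05, all higher. Groups did not overlap for 25 genes that were higher and for 1 that was lower, which was Plod3, a lysyl hydroxylase, named after its values were seen. Col1a1 had a scaled RPKM of 655, 321 and 479 in WT and of 2316, 1331 and 2892 in VitC+, and Col1a2 had 1419, 383 and 822 in WT and 3699, 2058 and 4005 in VitC+. These genes encode the chains of type I collagen, and their log2 differences were 2.15 (standard error 0.78, limma adjusted p = 0.160) and 2.03 (standard error 0.74, limma adjusted p = 0.161). Lox, which cross-links collagen, had 18.1, 6.17 and 12.7 in WT and 30.0, 32.3 and 57.3 in VitC+. The prolyl hydroxylase gene P4ha1, whose product needs VitC, differed less, with 11.7, 7.12 and 7.06 in WT and 17.3, 12.6 and 18.1 in VitC+ (log2 difference 0.88, standard error 0.49, limma adjusted p = 0.315). Genes of the general secretory route did not follow the collagens, with a median of -0.19 over 15 genes, of which 2 had an unadjusted p under 0.05. Both were higher, and they were Creb3l1 and Kdelr3, with log2 differences of 1.66 and 1.91, named after their values were seen.

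Wnt pathway genes, 14 of 20 tested, had a median of 0.86, and 7 of them had an unadjusted p under 0.05, all higher. Wif1, a secreted Wnt inhibitor, had 27.8, 10.7 and 19.6 in WT and 50.3, 41.7 and 71.6 in VitC+ (log2 difference 1.54, standard error 0.32, limma adjusted p = 0.0800). Genes of cells near bone had positive medians as well. Fibroblast and periosteal genes had a median of 1.46 over 14 genes, with 5 at an unadjusted p under 0.05, and of 0.81 without WT replicate 2. Stromal niche genes, which include factors that hold blood-forming cells, had a median of 0.60 over 11 genes, again with 5. Chondrocyte genes had a median of 1.85 over 9 genes, with 5 at an unadjusted p under 0.05. The cartilage collagen gene Col2a1 had 77.6, 33.9 and 43.7 in WT and 106, 129 and 275 in VitC+, and the summed level of the chondrocyte genes was 606 in VitC+ replicate 3 against 158 and 160 in the other VitC+ libraries and 37.5 to 105 in WT. That library thus carried more cartilage RNA than the rest, and the part of this in its other values was not tested.

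Osteoclast genes were among the most even within groups. Of 14 genes, 10 had an unadjusted p under 0.05 and were higher, the groups did not overlap for 10, and the median log2 difference was 1.12. Acp5, the tartrate-resistant acid phosphatase, had 290, 273 and 317 in WT and 648, 820 and 1083 in VitC+ (log2 difference 1.504, standard error 0.31, limma adjusted p = 0.0800). Ctsk, the protease that cuts bone collagen, had 366, 311 and 320 in WT and 917, 975 and 1019 in VitC+ (log2 difference 1.55, standard error 0.28, limma adjusted p = 0.0753). WT replicate 1 stood close to the other WT libraries in both genes, unlike in the osteoblast genes. Of the signals by which osteoblasts and osteocytes steer osteoclasts, Tnfsf11, which encodes RANKL, had 1.58, 1.73 and 2.10 in WT and 4.25, 2.67 and 5.09 in VitC+, and its decoy receptor Tnfrsf11b had 1.35, 0.365 and 0.758 in WT and 1.34, 1.72 and 7.86 in VitC+. The latter groups overlapped, and the high value of VitC+ replicate 3 carried the mean. Endothelial genes had a median of 0.87 over 15 genes, of which 12 had an unadjusted p under 0.05, all higher.

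**Figure D3:**
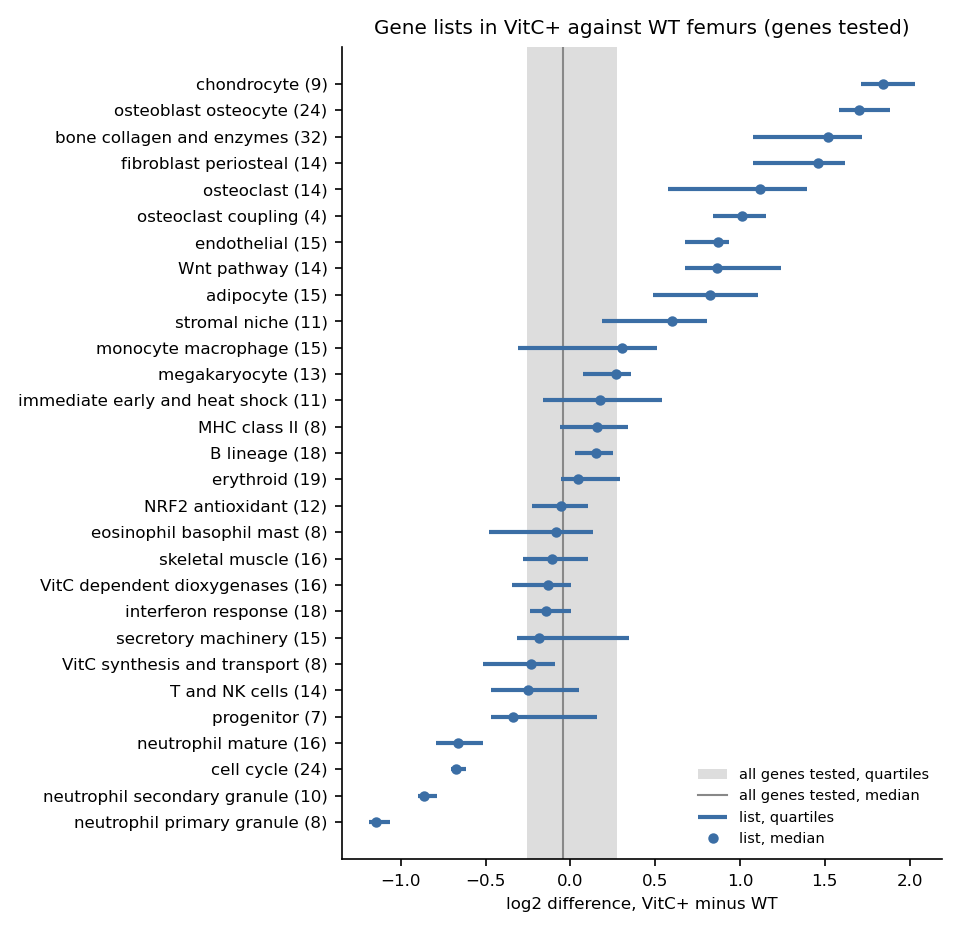
Median (points) and quartiles (lines) of the log2 difference VitC+ minus WT (horizontal axis) for 29 lists of genes, with the number of genes tested, beside the median and quartiles of all genes tested (grey line and band). Bone and cartilage lists lie at the right end, up to 1.85, and the cell cycle and neutrophil lists at the left end, down to -1.15.

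Neutrophil genes lay on the other side, most of all those of the primary granules, which are filled in the earliest stages. All 8 had an unadjusted p under 0.05 and were lower in VitC+, against 9.64% of all genes, and for 5 the groups did not overlap, against 14.2%. Mpo, which encodes myeloperoxidase, had 814, 1513 and 1034 in WT and 422, 711 and 439 in VitC+, a log2 difference of -1.09 (standard error 0.40, limma adjusted p = 0.162). Elane, which encodes neutrophil elastase, had 631, 1883 and 1281 in WT and 335, 756 and 509 in VitC+, a log2 difference of -1.19 (standard error 0.48, limma adjusted p = 0.195), and these groups overlapped because of WT replicate 1. Prtn3, the proteinase next to Elane on chromosome 10, had 1337, 2157 and 1942 in WT and 525, 1119 and 685 in VitC+.

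Secondary granule genes had a median of -0.86 over 10 genes, and 3 of them had an unadjusted p under 0.05, all lower. Ltf, which encodes lactoferrin, had 812, 1417 and 1288 in WT and 506, 796 and 609 in VitC+ (log2 difference -0.86, standard error 0.36, limma adjusted p = 0.206). The granule protein gene Ngp had 2965, 4890 and 4484 in WT and 1694, 2813 and 2084 in VitC+ (log2 difference -0.90, standard error 0.45, limma adjusted p = 0.268). For Camp, the cathelicidin gene, the nearest libraries were 4949 in WT replicate 2 and 4770 in VitC+ replicate 2, and the other libraries had 6292 and 8201 in WT and 2506 and 3541 in VitC+. Genes of mature neutrophils had a median of -0.66 over 16 genes, all of them lower and 3 at an unadjusted p under 0.05. S100a8, part of calprotectin, had 17445, 22133 and 22865 in WT and 10099, 15321 and 10444 in VitC+ (log2 difference -0.82, standard error 0.43, limma adjusted p = 0.295). The collagenase gene Mmp8 and the chemokine receptor gene Cxcr2 had log2 differences of -0.59 and -0.68, with groups that overlapped in both. The medians of the lists thus stood at -1.15, -0.86 and -0.66 from early to late stages, and the difference between stages was not tested.

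Genes of dividing cells were lower with little variation among themselves. All 24 genes of the cell cycle list were tested and lower in VitC+, 21 had an unadjusted p under 0.05, for 12 the groups did not overlap, and the log2 differences ran from -0.80 to -0.50. Mki67, a gene of proliferating cells, had 51.7, 102 and 68.4 in WT and 37.5, 53.3 and 44.0 in VitC+, a log2 difference of -0.67 (standard error 0.27, limma adjusted p = 0.184).

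**Figure D4:**
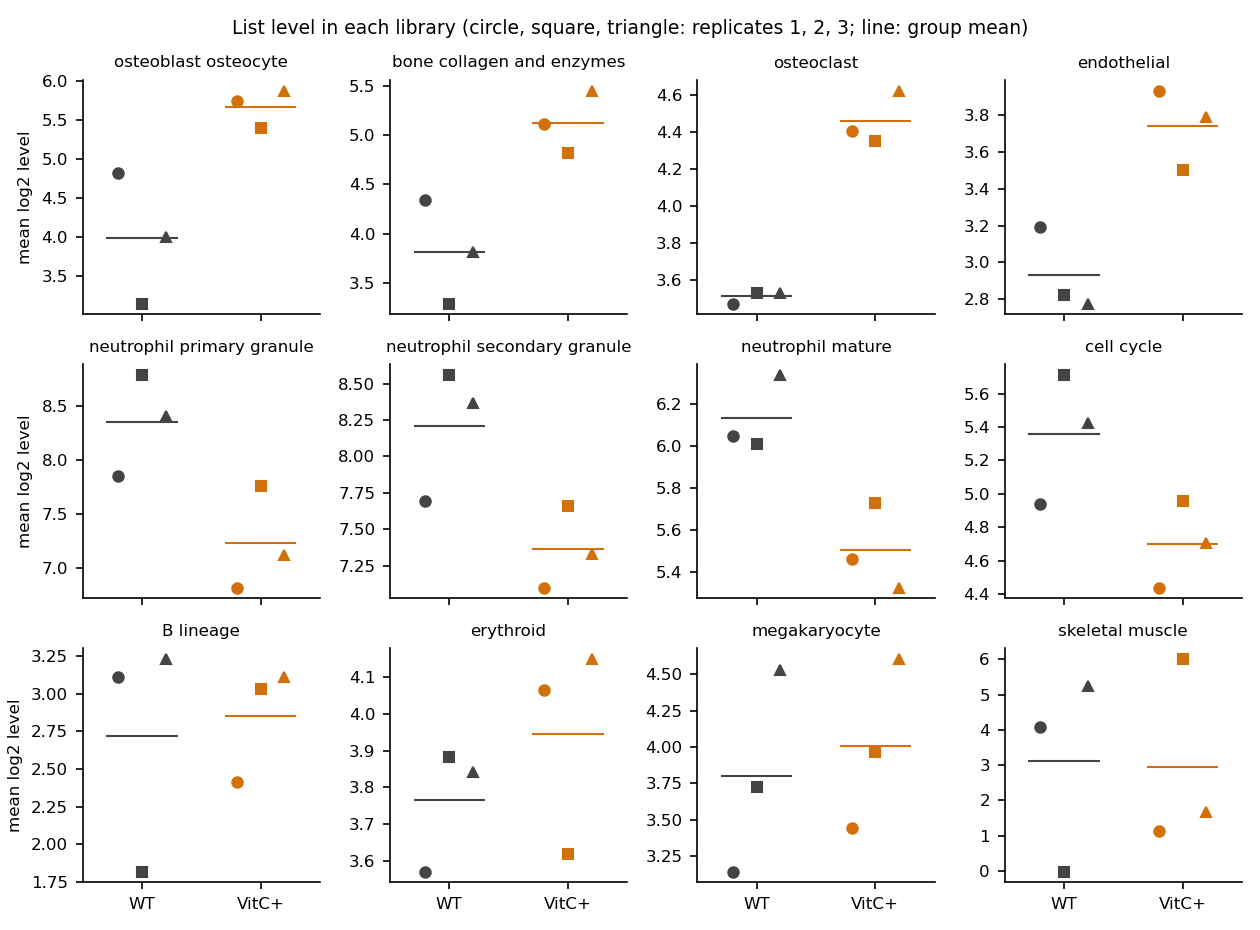
Mean log2 level (vertical axes, each on its own range) of 12 lists of genes in the 3 WT (dark) and 3 VitC+ (orange) libraries, where symbols stand for replicates and lines for group means. The osteoblast, collagen, osteoclast and endothelial lists are higher and the neutrophil and cell cycle lists mostly lower in VitC+, where the secondary granule list of WT replicate 1 at 7.70 comes close to the 7.66 of VitC+ replicate 2, the cell cycle lists overlap, and the B lineage, erythroid, megakaryocyte and muscle lists overlap too.

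Lists of the B lineage, red cells and platelets held no gene at the unadjusted threshold. Of 18 B lineage genes, 19 erythroid genes and 13 megakaryocyte genes, 0 had an unadjusted p under 0.05 in limma, and the medians were 0.15, 0.05 and 0.27. Leaving out 1 library turned each of these medians, to -0.33 for the B lineage without WT replicate 2 and to -0.11 and -0.08 for the erythroid and megakaryocyte lists without WT replicate 1. Vpreb1, part of the receptor of B-cell precursors, had 14.7, 0.637 and 13.8 in WT and 5.64, 10.4 and 9.50 in VitC+, and Rag1, which recombines antigen receptor genes, had 1.79, 0.660 and 1.92 in WT and 0.626, 1.90 and 1.91 in VitC+. WT replicate 2 was the lowest of the WT libraries in both genes. Alas2, which starts heme synthesis in red cell precursors, had 79.4, 71.5 and 70.2 in WT and 134, 67.1 and 83.1 in VitC+, and the platelet gene Pf4 had 97.8, 98.8 and 246 in WT and 104, 162 and 276 in VitC+.

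The monocyte and macrophage list was divided, with 4 genes higher and 4 lower at an unadjusted p under 0.05 among 15. Those higher included Csf1r, Cd68 and Mrc1, which are known from macrophages and, in part, from osteoclasts. Those lower were Ly6c2, Ccr2, F13a1 and Ms4a6c, which are known from monocytes. The rest of the list did not pass that threshold. Its log2 differences were 0.08 (Emr1), 0.30 (C1qa), 0.34 (C1qb), 0.31 (C1qc), 0.50 (Cd163), 0.15 (Cx3cr1) and -0.02 (Cd14). Apart from Csf1r and Ly6c2 these genes are named after their values were seen. Ly6c2 had 261, 352 and 299 in WT and 116, 138 and 136 in VitC+, a log2 difference of -1.21 (standard error 0.32, limma adjusted p = 0.102). Csf1r, the receptor for the macrophage growth factor CSF1, had 33.4, 40.6 and 30.3 in WT and 49.3, 49.8 and 50.5 in VitC+, a log2 difference of 0.52 (standard error 0.18, limma adjusted p = 0.155). Both groups were tight in these genes, and neither gene overlapped. Without WT replicate 3 and VitC+ replicate 1, 0 genes of the list were higher and 1 was lower at an unadjusted p under 0.05.

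The balance of bone and neutrophil RNA can be read in each library. The genes of the osteoblast and collagen lists held 1.72, 0.632 and 0.992% of the summed RPKM in WT and 4.82, 2.84 and 5.09% in VitC+. The genes of the 3 neutrophil lists held 13.3, 20.1 and 18.3% in WT and 8.67, 13.6 and 10.3% in VitC+. The mean log2 level of the osteoblast list less that of the primary granule list was -3.03, -5.64 and -4.42 in WT and -1.08, -2.37 and -1.25 in VitC+. The neutrophil shares overlapped, since WT replicate 1 lay below VitC+ replicate 2, and the other measures did not. Among the WT libraries, replicate 1 had the highest osteoblast level and the lowest primary granule level, and replicate 2 the reverse. These shares are parts of one whole, so a higher share of one tissue lowers that of the other, and whether bone, marrow or both differed per femur cannot be told apart.

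Lists that bear on VitC itself had small medians. Of 8 genes of VitC synthesis and transport, 6 were lower and 2 were higher in VitC+, with log2 differences from -0.80 to 0.52. Slc23a2, the main VitC transporter of most cells and 1 of the 2 higher, had 1.68, 2.90 and 2.25 in WT and 3.31, 3.34 and 3.62 in VitC+. Its log2 difference was 0.52 (standard error 0.20, limma adjusted p = 0.178). Among 16 genes of dioxygenases that use VitC, 2 had an unadjusted p under 0.05, both lower, and the median was -0.13. Tet2, which oxidizes methylated DNA, had 4.21, 6.02 and 4.99 in WT and 3.18, 4.72 and 3.70 in VitC+ (log2 difference -0.35, standard error 0.20, limma adjusted p = 0.317). Antioxidant genes under NRF2 had a median of -0.06 over 12 genes, of which 2 had an unadjusted p under 0.05, and these were Gsr and Gpx1, both lower and named after their values were seen. Among other lists, interferon response genes had a median of -0.14 over 18 genes, with 1 at an unadjusted p under 0.05. Isg15 had 26.2, 34.2 and 32.4 in WT and 32.2, 25.9 and 26.9 in VitC+. Adipocyte genes had a median of 0.82 over 15 genes but 2 at an unadjusted p under 0.05, and Adipoq, which encodes adiponectin, overlapped between the groups with 28.8, 20.2 and 14.8 in WT and 39.1, 18.4 and 41.2 in VitC+. Xist lay between 31.0 and 53.6 and the Y-linked Ddx3y at or under 0.146 in the 6 libraries, so that none had the pattern of male mice.

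The remaining lists had medians of 0.15 for the 8 genes of MHC class II, 0.18 for 11 immediate early genes, -0.08 for 8 genes of eosinophils, basophils and mast cells (-0.53 to 0.60 with 1 library left out), -0.25 for 14 genes of T and NK cells, -0.34 for 7 progenitor genes, -0.23 for 8 genes of VitC synthesis and transport and 1.01 for the 4 genes of osteoclast coupling. Of these, 3 immediate early, 3 osteoclast coupling and 1 VitC transport gene were higher at an unadjusted p under 0.05, and 1 MHC class II, 2 T and NK cell, 2 progenitor and 2 VitC synthesis and transport genes were lower. The skeletal muscle list had a median of -0.11 over 16 genes with 0 at an unadjusted p under 0.05 in limma, and Ckm, the muscle creatine kinase, ran from 0.473 to 91.5 in WT and from 2.21 to 137 in VitC+.

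WT replicate 1, the shallow library, was also the WT library nearest to VitC+ on both sides of the balance. Without it, 508 of 12507 genes (4.06%) were higher and 96 (0.768%) were lower in VitC+ at a limma adjusted p under 0.05, with WT represented by 2 libraries. Of the osteoblast and osteocyte list, 13 of 24 genes passed as higher. They include Bglap2, Dmp1, Spp1, Sost and Bglap, with log2 differences of 3.23, 1.89, 1.77, 2.24 and 2.79 and limma adjusted p-values of 0.0388, 0.0388, 0.0388, 0.0399 and 0.0423. Of the cell cycle list, 12 of 24 genes passed as lower. In the collagen list 4 genes passed, in the osteoclast list 4 and in the endothelial list 5, all as higher, and no gene of the neutrophil lists passed. Mpo, Elane and Ltf then had limma adjusted p-values of 0.0898, 0.0656 and 0.0944. Ctsk passed with 0.0414, and Col1a1 did not, with 0.115.

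The 5 genes in each direction with the lowest adjusted p without WT replicate 1 and an average of 10 or more in the higher group were chosen by these values and are described only. Those higher included Vdr, Ltbp3, Dmp1 and E130203B14Rik. Ltbp3, which binds latent TGF-beta, had 7.79, 4.19 and 4.97 in WT and 19.9, 13.03 and 18.99 in VitC+. Those lower were Ada, Pbk, Acot7, B4galt6 and Rfc5. Rfc5, a subunit of a clamp loader in DNA replication, had 25.2, 32.1 and 30.5 in WT and 17.6, 20.3 and 17.6 in VitC+, and Ada, the adenosine deaminase, had 12.7, 23.1 and 18.8 in WT and 7.77, 10.4 and 8.02 in VitC+.

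Leaving out the library labelled WT replicate 3 together with that labelled VitC+ replicate 1 left 0 genes past an adjusted p under 0.05 in limma, with a lowest adjusted p of 0.576. Of the 12453 genes then tested, 714 were higher and 195 lower at an unadjusted p under 0.05. The median of the osteoblast list was 1.65, and 13 of its genes had an unadjusted p under 0.05. The median of the primary granule list was -0.89 and that of the cell cycle list -0.49, with 0 and 2 genes at an unadjusted p under 0.05. The B lineage median moved to 0.57 and the megakaryocyte median to 0.92, where 10 of 13 megakaryocyte genes had an unadjusted p under 0.05 and were higher. The bone and neutrophil medians thus kept their direction without these libraries, and the size of the megakaryocyte median was over 3 times as large without them. The mean log2 level of the megakaryocyte list was 3.14, 3.72 and 4.53 in WT and 3.44, 3.97 and 4.61 in VitC+. Leaving out WT replicate 3 and VitC+ replicate 1 thus removed the highest WT and the lowest VitC+ library for this list.

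**Figure D5:**
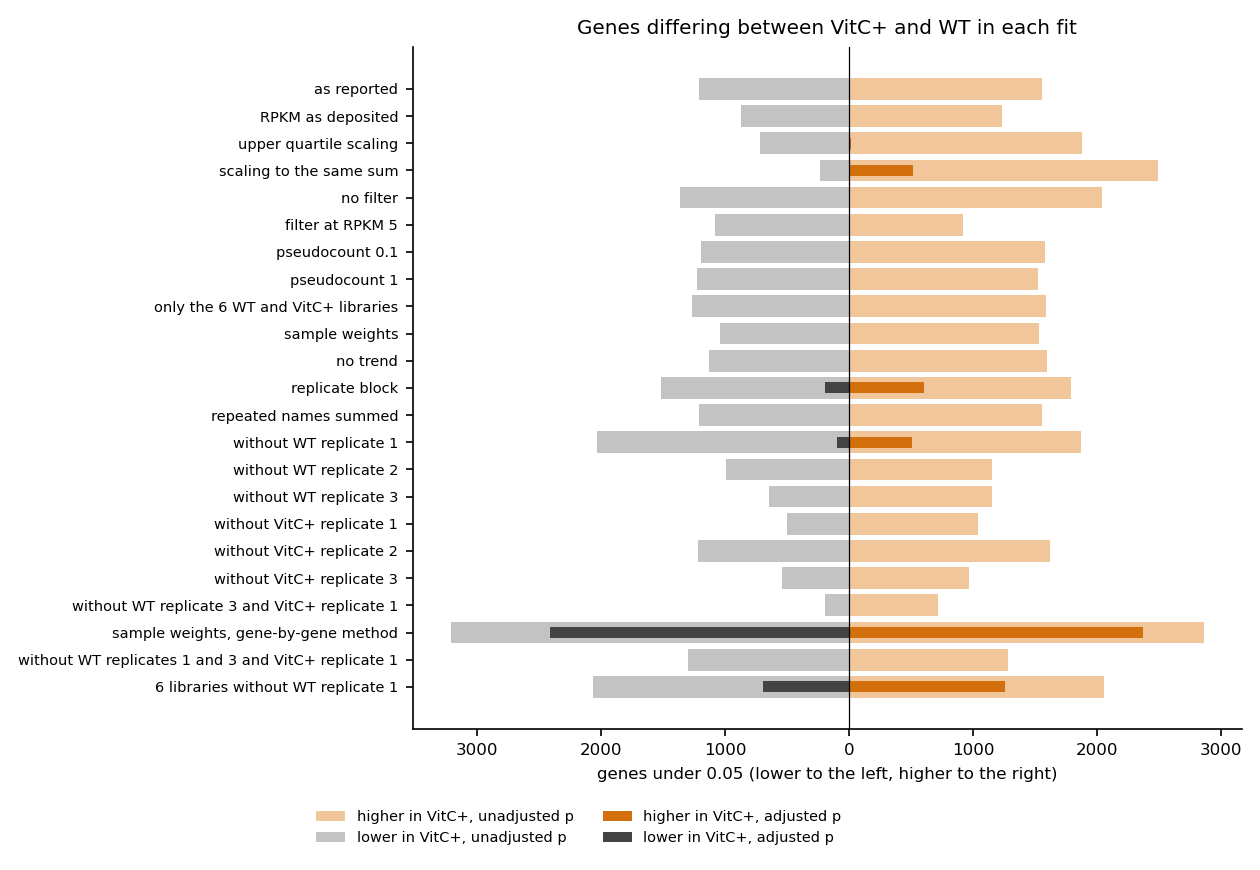
Number of genes (horizontal axis) lower (left) or higher (right) in VitC+ than in WT for the fit as reported and 22 alternatives (vertical axis), where wide pale bars count an unadjusted p under 0.05 and narrow dark bars a limma adjusted p under 0.05. Calls past the adjusted threshold appear in 6 alternatives, among them the fit without WT replicate 1 with 508 higher and 96 lower.

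The largest differences were looked up among genes whose unadjusted p was under 0.05, whose groups did not overlap and whose higher group averaged 10 or more. They were chosen by size and are described only. The 6 highest were Snord123, Bglap2, 1500015O10Rik, Snord4a, Mir3074-1 and Cthrc1, with log2 differences from 2.23 to 3.01. Snord123, Snord4a and Mir3074-1 are entries of 88, 70 and 85 bases, and few reads stand behind them. Snord4a had about 1, 6 and 2 reads in WT and 25, 17 and 35 in VitC+, Snord123 had about 0, 3 and 12 reads in WT and 23, 40 and 48 in VitC+, and both Snord123 and Mir3074-1 were listed at 0 in the shallow WT replicate 1. Cthrc1, a secreted protein of matrix-forming cells, had a scaled RPKM of 21.0, 2.08 and 11.6 in WT and of 45.2, 28.4 and 51.6 in VitC+. The 6 lowest were Prtn3, Ly6c2, Prss57, Ffar2, Gca and Ms4a3, with log2 differences from -1.27 to -1.11. Of these, Prtn3, Prss57 and Ms4a3 belong to the primary granule list and Ly6c2 to the monocyte list. Ffar2, which encodes a receptor for short-chain fatty acids, had 25.3, 16.97 and 20.0 in WT and 7.38, 11.9 and 8.22 in VitC+.

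Because the knockout allele comes from another strain, DNA around Gulo can differ between the groups. Within 5 Mb of Gulo on chromosome 14, 65 genes were tested. Of these 20 (30.8%) had an unadjusted p under 0.05, 11 higher and 9 lower, against 22.0% of all genes, and the groups did not overlap for 22 (33.8%), against 28.8%. Neither share was tested, and 0 genes passed an adjusted p under 0.05 in limma with all libraries and 5 without WT replicate 1. The 4 genes with the lowest unadjusted p were chosen by these values. Scara3, a scavenger receptor gene from 65919395 to 65953744, had 10.7, 6.91 and 9.74 in WT and 23.9, 18.3 and 29.9 in VitC+. Sox7 had 0.831, 0.646 and 0.494 in WT and 2.09, 1.64 and 1.69 in VitC+, the zinc transporter gene Slc39a14 had 4.56, 2.56 and 2.87 in WT and 8.32, 7.15 and 10.7 in VitC+, and Ephx2, the soluble epoxide hydrolase gene from 66084377 to 66124500, had 1.53, 1.35 and 1.88 in WT and 3.78, 3.35 and 4.48 in VitC+. The groups did not overlap in any of the 4 genes, and all 4 were higher in VitC+. Pbk, named above among the genes lower in VitC+ without WT replicate 1, also lies in this window, from 65805911 to 65817822.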

How the data were processed

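RNA-seq libraries of mouse femurs were used. According to the processing notes of the submitters, reads were checked with FastQC 0.72, trimmed with Trim Galore 0.4.3.1, aligned to mm10 with STAR 2.6.0b-1 and counted with featureCounts 1.6.3. Libraries were made with a TruSeq v2 kit and sequenced as paired ends on an Illumina HiSeq instrument. The values used here are RPKM deposited by the authors for each gene and library, and the tool that made them is not given in the sources used here, where cufflinks is named for FPKM. Of 23358 entries per library, 69 share a name with another entry, under 26 names, and were dropped.

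Each library was scaled by its median-of-ratios factor (0.754 for VitC+ replicate 1, 0.968 to 1.10 for the others), and log2(scaled RPKM + 0.5) was taken. Genes reaching 1 RPKM in 3 or more of the 9 libraries, 12571 in all, were tested with limma 3.58.1 (R 4.3.3, lmFit and eBayes with trend, two-sided) over WT, VitC+ and VitC+/- libraries, with the Benjamini-Hochberg method and calls at an adjusted p under 0.05. The code of the fit was run on simulated data in which genes varied independently of each other. That run does not show how the fit handles libraries that differ in muscle, marrow or cartilage RNA. The test that the study describes takes counts and was not used, since the values are RPKM. Replicates are described as biological triplicates. Depth was estimated from low values of genes with a single RefSeq transcript, so that counts of reads are approximate and cover counting error only.

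The members and the 30 lists of genes were chosen with earlier results of these data known. Of 459 list genes, 451 were found, 9 under an older symbol. Genes named are Gulo, 43 examples from the lists (42 found), the 6 largest differences each way among genes whose unadjusted p was under 0.05, whose groups did not overlap and whose higher group averaged 10 or more, the 5 genes in each direction with the lowest adjusted p without WT replicate 1 and the same average (ties at 0.0388 broken by the unadjusted p), and the 4 genes near Gulo with the lowest unadjusted p. Some genes that these rules select are not reported here. Others are marked as named after their values were seen. Alternatives, 19 planned and 3 added after the data were seen, changed scaling, filter, pseudocount, weights, trend, block, repeated names and libraries. Other software was Python 3.11.15, pandas 2.3.3, numpy 2.4.6 and matplotlib 3.10.9.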

Additional observations from a re-analysis of the deposited data

How the results depend on the processing

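The number of genes past a limma adjusted p under 0.05 was 0 with all libraries and in 16 of 22 alternatives. It was 17 with upper quartile scaling, 513 with scaling to the same sum (510 higher, 3 lower), 0 to 604 when libraries were left out (604 without WT replicate 1, 0 without each of the other 5) and 1956 when the 6 libraries were fitted without WT replicate 1. With the replicate block the count was 794. Same-numbered WT and VitC+ libraries had correlations of deviations of 0.47, 0.09 and -0.08. Libraries with different numbers were not compared in this way, so whether the numbers pair the samples was not tested. The fit as reported does not pair them. Sample weights by the default method of arrayWeights gave 0 calls, but that method stopped before it converged, with weights from 0.000204 for WT replicate 3 to 43.3 for VitC+/- replicate 1. The gene-by-gene method, chosen after this was seen, weighted WT replicate 3 at 4.62, more than any other library, and gave 4774 calls. Why the methods differ was not tested. The fit without WT replicates 1 and 3 and VitC+ replicate 1, also added after the data were seen, assumes that the lone WT library varies like the other groups.

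Of 30 list medians, 16 kept their sign in every alternative, among them the osteoblast, collagen, Wnt, osteoclast, endothelial, neutrophil and cell cycle lists. With 1 to 3 libraries left out, medians ran from 1.29 to 2.62 for osteoblast, 1.11 to 2.33 for collagen, 0.68 to 1.32 for Wnt, -0.31 to -0.04 for secretory, 0.81 to 2.13 for fibroblast, 0.29 to 0.71 for stromal, 1.02 to 2.77 for chondrocyte, 0.88 to 1.22 for osteoclast, 0.61 to 0.93 for endothelial, -0.83 to -0.52 for mature neutrophil and -0.13 to 0.50 for monocyte genes. They ran from -0.33 to 0.99 for B lineage, -0.60 to 0.0073 for T and NK, -0.31 to 0.24 for erythroid, -0.081 to 0.92 for megakaryocyte, -0.51 to -0.15 for progenitor, 0.49 to 1.20 for adipocyte, -1.73 to 4.42 for muscle, -0.49 to -0.063 for interferon and -0.17 to 0.49 for MHC class II genes. They ran from -0.041 to 0.47 for immediate early, -0.32 to -0.070 for dioxygenase, -0.37 to -0.11 for VitC transport and -0.055 to 0.00029 for NRF2 genes and from -0.55 to 0.13 for Xist, the sole sex-linked gene tested.

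Scaling to the same sum gave 0.018 (secretory), 1.28 (osteoclast), -0.46 (mature neutrophil), 0.51 (monocyte), -0.15 (progenitor), 0.027 (interferon), 0.061 (dioxygenase), -0.031 (VitC transport) and 0.15 (NRF2), and upper quartile scaling -0.26 (progenitor) and 0.025 (NRF2). The RPKM as deposited gave -0.42 (progenitor) and -0.14 (NRF2), no filter -0.09 (progenitor) and -0.11 (NRF2), and a filter at 5 RPKM -0.11 (NRF2). Osteoclast medians were 1.28 and 0.96 with pseudocounts of 0.1 and 1. Default weights gave 3.35 (chondrocyte), 1.29 (osteoclast), 0.021 (monocyte), -0.60 (T and NK), 0.99 (megakaryocyte) and 1.34 (adipocyte). Gene-by-gene weights gave 1.31 (osteoclast), -0.87 (mature neutrophil), -0.093 (progenitor), 0.54 (MHC class II), -0.40 (VitC transport) and -0.11 (NRF2). The 6 libraries without WT replicate 1 gave -0.25 (progenitor), 0.43 (immediate early), -0.28 (dioxygenase) and 0.011 (NRF2).

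Of 63 named genes tested, 56 kept their direction in every alternative in which they were tested, which leaves out the filter at 5 RPKM for Tnfrsf11b, Slc23a2, Sox7 and Ephx2. Leaving out 1 library moved some differences by over 1.5 times, to 1.17 (Bglap), 0.61 (Phospho1), 0.99 (Alpl), 1.34 (Cthrc1) and -0.42 (Mki67) without WT replicate 2, to 0.68 (Tnfrsf11b) and 1.46 (1500015O10Rik) without VitC+ replicate 3, and to 1.12 (Mir3074-1) without WT replicate 1. Adipoq ran from 0.35 to 0.95. With libraries left out, log2 differences ran from -0.75 to 1.35 for Vpreb1, -0.34 to 0.57 for Rag1, -0.011 to 0.51 for Alas2, -0.044 to 1.10 for Pf4, -2.33 to 4.66 for Ckm and -0.55 to 0.13 for Xist. Gene-by-gene weights reversed Vpreb1 (-0.34), Rag1 (-0.12), Pf4 (-0.075) and Xist (0.032), scaling to the same sum Isg15 (0.080) and Xist (0.10), and the RPKM as deposited Rag1 (-0.014). Ckm was 0.41 with default weights and 0.29 with 6 libraries less WT replicate 1. The causes of these shifts were not tested. Within 2 Mb of Gulo 8 of 23 genes (34.8%), and within 10 Mb 28 of 120 (23.3%), had an unadjusted p under 0.05. The share over all genes was 22.0%. The groups did not overlap for 11 genes (47.8%) within 2 Mb and 30 genes (25%) within 10 Mb, against 28.8% of all genes. These shares were not tested. With about 7620000 reads, WT replicate 1 limits what can be said of genes of low level.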

Other observations

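Egln1, which encodes an oxygen-sensing prolyl hydroxylase, had a scaled RPKM of 10.7, 9.73 and 11.0 in WT and of 47.5, 11.5 and 11.0 in VitC+. The high value stood in the library labelled VitC+ replicate 1 alone, the same library that had more Gulo than the other Gulo-/- libraries. This gene is named after its values were seen. It is a member of the list of dioxygenases that use VitC, and no comparison rests on it alone.

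The eosinophil, basophil and mast cell genes summed to a scaled RPKM of 243, 72.6 and 109 in WT and of 410, 84.97 and 51.8 in VitC+. By this sum replicate 1 was the highest library in both groups. Prg2 alone held 145 of the sum in WT replicate 1 and 286 in VitC+ replicate 1. Mcpt8, Cpa3 and Ms4a2 were highest in another library than replicate 1 in both groups, and the rest of the list in replicate 1. These genes are named after their values were seen.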
